A study of Homo sapiens with 6 samples.

Results

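The genes examined encode 10 growth factor receptor kinases, EGFR, ERBB2, ERBB3, MET, MST1R, FGFR2, FGFR3, FGFR4, DDR1 and EPHA2. Their RNA polymerase II occupancy was read from the ChIP-seq regions that the authors assigned to these gene symbols, 291 of the 271336 regions in 4 lists. The lists name 16428 genes. Receptor tyrosine kinases cross the plasma membrane, bind a growth factor or matrix ligand outside the cell and phosphorylate tyrosines inside it, from which adaptor proteins carry the signal to the RAS-MAP kinase and PI3 kinase pathways. Tyrosine phosphatases such as SHP-1 can reverse these phosphorylations. In liver cells, EGFR and MET receive growth signals, and FGFR4 with its coreceptor KLB restrains bile acid synthesis.

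HepG2, a human liver tumor cell line, was used untreated and came in a pair of genotypes. SHP-1 KO cells were made with CRISPR-Cas9 guides against exons for the phosphatase domain of PTPN6, the SHP-1 gene, and were grown from single cells. WT denotes HepG2 cells without the knockout. The paper does not state whether the WT cells of the ChIP-seq were untransfected or had received a non-targeting guide. Each genotype gave 1 library with an antibody against RPB1, the largest subunit of RNA polymerase II, and 1 library with an antibody against RPB1 phosphorylated on serine 2 of its C-terminal repeats. A knockout line grown from a single cell is 1 clone, so what the clone carries cannot be told apart from the loss of SHP-1. RPB1 gathers near the starts of genes, and phospho-Ser2 RPB1 is the elongating form that builds up toward gene ends.

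Values are the authors' fold enrichments over input DNA at the summit of a region, as MACS2 gave them, and the strongest region of a gene stands for the gene. The RPB1 lists held 46045 regions in WT and 41605 in the knockout, and the phospho-Ser2 lists held 102674 and 81012. The lists carry no read counts and depth is unknown. With 1 library per group, no difference given here has a replicate check or a p-value. The authors' own comparison of the genotypes, which gave p-values, was not used. Of 8 hepatocyte genes, 8 had an RPB1 region in WT and 7 in the knockout, against 3 and 2 of 10 genes of blood, endothelial and fibroblast cells. In WT cells these 3 had fold enrichments from 5.94 to 17.3, and PTPRC, CDH5 and COL1A2 had no RPB1 region in either list.

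The sequences just upstream of 6 of the genes are shown as examples of the DNA that WT RPB1 regions overlapped, in the case of FGFR2 only in part, and were chosen after their values were seen. They are exon-free stretches of the 250 bases before a RefSeq gene start (GRCh38.p14, the build of the lists), 5′ to 3′ on the strand of the gene. Capitals mark GC boxes, GGGCGG or its reverse complement CCGCCC, the letters bound by SP1-type factors, and matches could overlap.
FGFR3, chr4:1793043-1793292, forward strand: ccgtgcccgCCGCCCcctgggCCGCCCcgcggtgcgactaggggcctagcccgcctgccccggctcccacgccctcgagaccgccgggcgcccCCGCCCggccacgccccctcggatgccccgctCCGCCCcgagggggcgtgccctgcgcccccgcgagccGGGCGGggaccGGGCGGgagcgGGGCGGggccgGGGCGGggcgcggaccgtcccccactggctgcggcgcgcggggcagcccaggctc
FGFR4, chr5:177086665-177086904, forward strand: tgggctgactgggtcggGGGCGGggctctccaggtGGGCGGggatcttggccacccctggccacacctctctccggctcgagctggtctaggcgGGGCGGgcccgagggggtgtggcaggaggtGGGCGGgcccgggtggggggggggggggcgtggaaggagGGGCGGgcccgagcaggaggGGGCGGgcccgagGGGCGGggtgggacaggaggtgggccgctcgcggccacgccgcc
EPHA2, chr1:16156070-16156319, reverse strand: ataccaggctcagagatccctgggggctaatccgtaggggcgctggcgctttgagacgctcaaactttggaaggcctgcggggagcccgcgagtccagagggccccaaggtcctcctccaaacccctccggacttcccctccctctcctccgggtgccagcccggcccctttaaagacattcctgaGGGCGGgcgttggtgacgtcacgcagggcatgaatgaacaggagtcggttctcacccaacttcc
MET, chr7:116671946-116672195, forward strand: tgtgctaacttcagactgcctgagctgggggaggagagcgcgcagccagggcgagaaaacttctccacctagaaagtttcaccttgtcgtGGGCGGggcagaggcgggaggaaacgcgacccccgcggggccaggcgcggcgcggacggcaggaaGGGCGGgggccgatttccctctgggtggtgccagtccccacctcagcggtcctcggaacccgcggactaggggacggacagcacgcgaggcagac
EGFR, chr7:55018767-55019016, forward strand: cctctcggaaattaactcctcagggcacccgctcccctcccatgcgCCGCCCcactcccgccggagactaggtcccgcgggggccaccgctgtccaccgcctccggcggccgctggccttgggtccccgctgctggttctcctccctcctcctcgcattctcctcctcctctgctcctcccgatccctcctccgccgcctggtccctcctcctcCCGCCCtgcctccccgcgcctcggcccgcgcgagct
FGFR2, chr10:121598459-121598694, reverse strand: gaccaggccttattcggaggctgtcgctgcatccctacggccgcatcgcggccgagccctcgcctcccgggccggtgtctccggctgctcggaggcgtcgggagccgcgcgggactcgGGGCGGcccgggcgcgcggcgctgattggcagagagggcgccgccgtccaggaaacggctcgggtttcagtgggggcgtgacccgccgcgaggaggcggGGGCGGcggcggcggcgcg

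The FGFR3 stretch held 8 GC boxes and the FGFR4 stretch held 7, while the EPHA2 stretch held 1 and those of MET, EGFR and FGFR2 held 2 each. Over windows of 300 bases, from 250 before to 50 after the start, 45.0% of 35116 RefSeq windows held at least 1 GC box. TATAAA on either strand was in no window of these 6 starts and in 11.5% of all windows. The 6 windows had 20 to 52 CpG dinucleotides, against a median of 14 over all windows. WT RPB1 regions also overlapped windows of MST1R, ERBB2, DDR1 and a second start of FGFR4, which are not shown. CpG dinucleotides numbered 25 for MST1R, 24 for an ERBB2 start, and 9, 11, 34 and 21 for DDR1 starts, so some lay below the median of 14. The FGFR4 window at that second start, 177089550, held 0 GC boxes and 2 CpG dinucleotides, so GC boxes were not shared by all overlapped windows. The promoter table used here gave a window for 9 of the 10 genes, and ERBB3 was not analysed. A match of letters is no evidence of a bound factor.

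The 10 genes were chosen with earlier results of these data known, so the shares below describe them and test nothing. In WT cells, all 10 genes had an RPB1 region, where 57.0% of 20056 protein-coding genes had one. Of the other 48 receptor tyrosine kinase genes, 21 had an RPB1 region in WT cells. In SHP-1 KO cells 8 of 10 had an RPB1 region, against 54.8% of protein-coding genes. Phospho-Ser2 regions were assigned to 9 of 10 genes in WT cells, against 51.3%, and to 8 of 10 in SHP-1 KO cells, against 46.7%. The genes had 68 RPB1 regions in WT and 72 in the knockout, and 81 and 70 phospho-Ser2 regions. EPHA2, FGFR3 and ERBB3 had the most RPB1 regions, with 22, 17 and 12 in WT cells, whereas MET, MST1R and FGFR2 had 1 each.

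**Figure D1:**
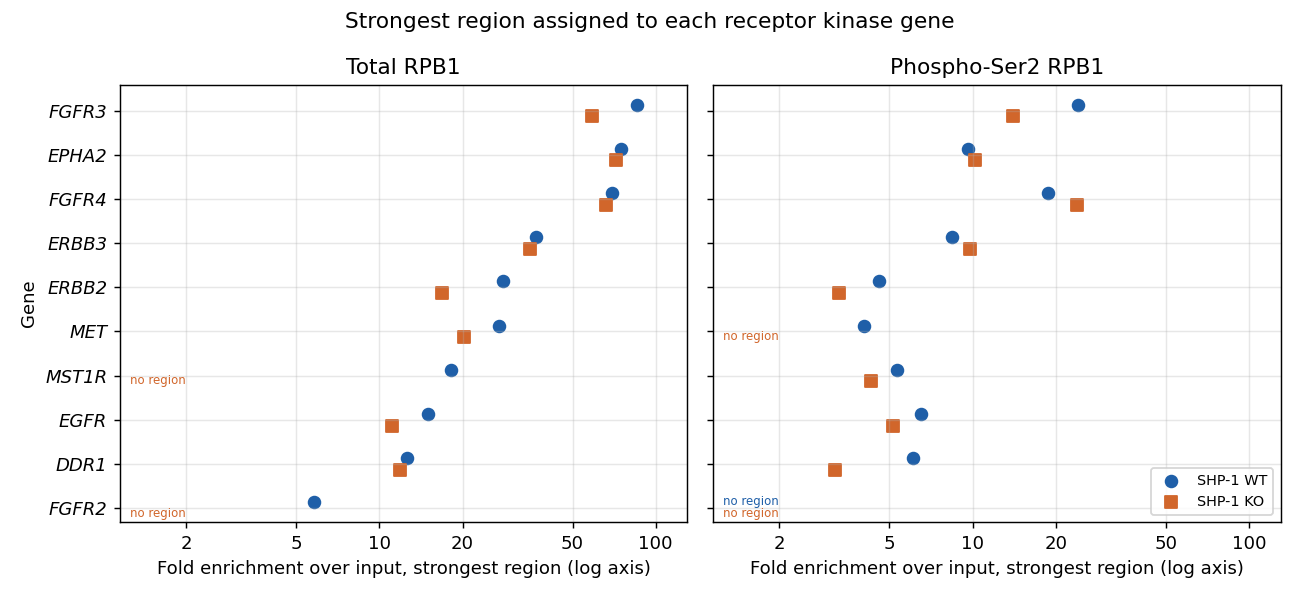
Fold enrichment over input (log axis) of the strongest region assigned to each receptor kinase gene, for total RPB1 and phospho-Ser2 RPB1, with a circle for the WT list and a square for the SHP-1 KO list, 1 library each. FGFR3, EPHA2 and FGFR4 lie between 58.6 and 85.6 for RPB1, above the other 7 genes, and FGFR3 and FGFR4 lie highest for phospho-Ser2 RPB1.

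The strongest RPB1 regions belonged to 2 fibroblast growth factor receptors and 1 ephrin receptor. FGFR3 (chromosome 4, 1793293 to 1808872, forward strand) had a fold enrichment of 85.6 in WT, rank 117 in the list, and of 58.6 in SHP-1 KO cells, rank 311. EPHA2 (chromosome 1, 16124337 to 16156069, reverse strand), a receptor for ephrin-A ligands on neighboring cells, had 75.0 in WT, rank 285, and 71.7 in the knockout, rank 114. FGFR4 (chromosome 5, 177086905 to 177098144, forward strand), the receptor for the intestinal hormone FGF19, had 69.3 in WT, rank 441, and 66.2 in the knockout, rank 173. The fold enrichments of EPHA2 and FGFR4 were slightly lower in the knockout while their ranks were closer to the top. These regions sat on the sequences shown above, with summits 111, 28 and 139 bp past the gene start in WT cells, in the 5′ UTR of the first exon.

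The ERBB family includes the epidermal growth factor receptor and its dimer partners, and ERBB3 was the fourth strongest of the 10 genes in WT cells. ERBB3 (chromosome 12, 56076799 to 56103505, forward strand), a neuregulin receptor whose own kinase is weak, had an RPB1 fold enrichment of 36.9 in WT and 35.1 in the knockout. The summit lay 3402 bp past the gene start in WT cells, in the 5′ UTR of the canonical transcript, since another transcript begins farther upstream. ERBB2 (chromosome 17, 39687914 to 39730426, forward strand), the partner receptor without a known ligand of its own, had 3 RPB1 regions in WT cells, each classed as promoter. These regions ran from 39686943 to 39689185 with 20.4, from 39694928 to 39696675 with 27.9 and from 39699519 to 39701178 with 22.1. In SHP-1 KO cells the strongest regions at the same places had 11.3, 16.8 and 16.8, so each was lower than in WT cells.

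EGFR (chromosome 7, 55019017 to 55211628, forward strand) had its strongest WT region inside intron 1, from 55077583 to 55079403, with an RPB1 fold enrichment of 15.0. In SHP-1 KO cells the stronger of a pair of regions within that interval had 5.83. At the gene start the values were 10.0 in WT and 11.1 in the knockout, so the start and the intron differed in direction. A further RPB1 region inside EGFR was assigned to EGFR-AS1, the antisense RNA gene within it, and was the strongest of the EGFR interval, with 24.7 in WT (55178765 to 55180889) and 16.5 in the knockout (55177481 to 55181489). Reads of ChIP DNA carry no strand of transcription, so EGFR and EGFR-AS1 cannot be told apart there.

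The remaining receptors had fewer regions. MET (chromosome 7, 116672196 to 116798377, forward strand), the hepatocyte growth factor receptor, had 1 RPB1 region in each list, at its start, with 27.2 in WT and 20.2 in the knockout. DDR1 (chromosome 6, 30876421 to 30900156, forward strand), a receptor for collagen, had a region near internal starts with 12.6 in WT and 11.9 in the knockout, and a weaker one downstream with 7.25 and 4.20. MST1R (chromosome 3, 49887002 to 49903873, reverse strand), the receptor for macrophage-stimulating protein, had 18.1 in WT cells from 49903525 to 49904141, with the summit on its first base. FGFR2 (chromosome 10, 121478332 to 121598458, reverse strand) had 5.80 in WT cells from 121598238 to 121598504, 85 bp past its start. For both genes the SHP-1 KO list held no RPB1 region.

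The strongest RPB1 summit was within 1 kb of the gene start for 6 of 10 genes in WT cells, where 65.5% of 11421 genes had it there. In SHP-1 KO cells this held for 5 of 8 genes, against 66.5% of 10970 genes. The genes outside 1 kb in WT cells were EGFR, ERBB2, ERBB3 and DDR1. The authors' promoter class held 34 of the 68 WT regions, but 9 of the 68 had their summit within 1 kb of the start of the gene itself. Of the promoter regions farther from the gene start, ERBB3 had the most.

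**Figure D2:**
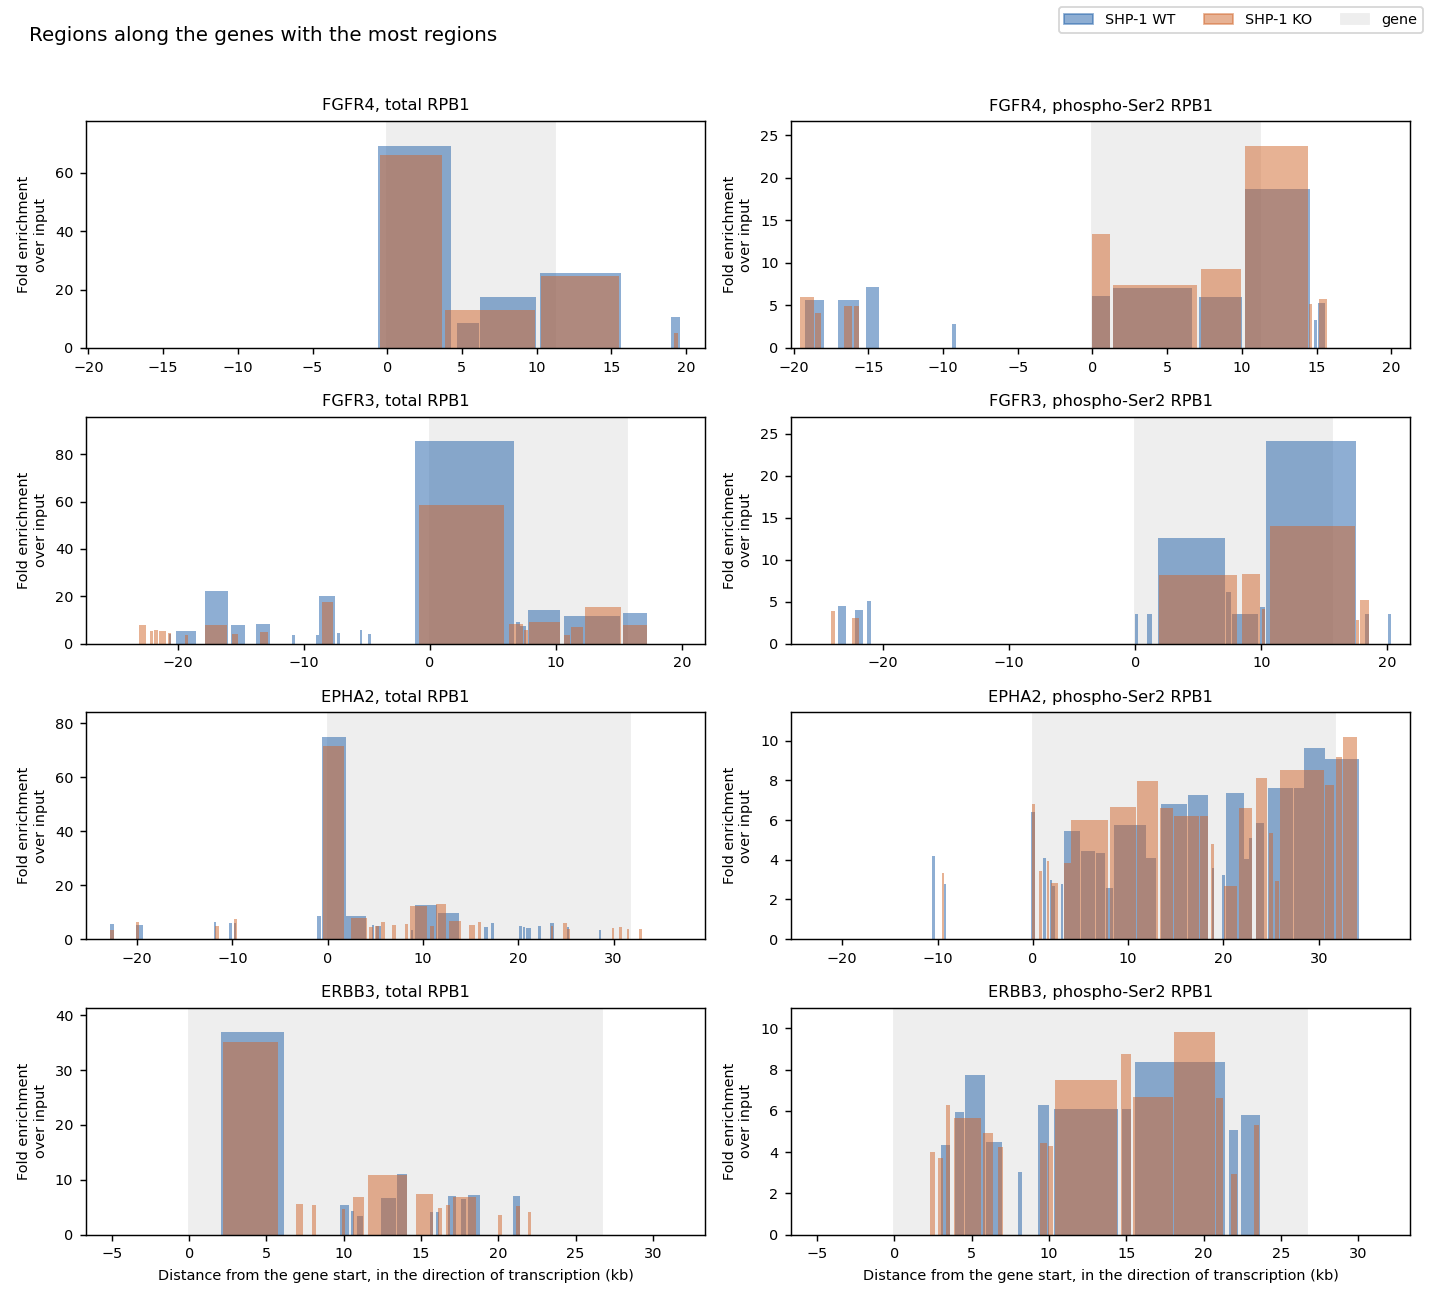
Regions assigned to FGFR4, FGFR3, EPHA2 and ERBB3, drawn by distance from the gene start (kb, in the direction of transcription) and by fold enrichment over input, for RPB1 on the left and phospho-Ser2 RPB1 on the right. WT regions are blue, SHP-1 KO regions are orange and the gene is gray, and RPB1 is highest near the start while phospho-Ser2 RPB1 is highest toward or just past the end of FGFR4, FGFR3 and EPHA2.

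The summit of the strongest phospho-Ser2 region lay past the middle of the gene for 8 of 9 genes in WT cells, against 54.0% of 10272 genes, and for 7 of 8 in SHP-1 KO cells, against 53.6% of 9357 genes. MST1R was the exception, since its regions lay outside the gene. Over all regions with a summit inside the transcripts of these genes, 50.0% of 56 phospho-Ser2 regions in WT (95% Wilson interval 37.3 to 62.7) and 47.6% of 42 in the knockout (33.4 to 62.3) lay past the middle. For RPB1 the shares were 43.5% of 46 (30.2 to 57.8) and 39.6% of 53 (27.6 to 53.1), so all regions together did not separate the antibodies beyond counting error. For DDR1, FGFR3 and FGFR4 in WT cells, the summit was past the end of the gene, and in SHP-1 KO cells this was also so for EPHA2. The strongest RPB1 summit assigned to the gene was past its middle for 0 of 10 genes in WT, against 13.3% of all genes, and for 0 of 8 in the knockout, against 13.0%. This depends on the assigned symbols. The strongest RPB1 summits inside EGFR (24.7 in WT, 16.5 in the knockout, assigned to EGFR-AS1) lay past its middle. Those inside ERBB2 (31.3 and 22.6, assigned to MIEN1) did too.

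FGFR3 had the highest phospho-Ser2 fold enrichment in WT cells, with 24.1 in a region of 7177 bp that ran from 1803637 to 1810813, rank 93 in the list. In SHP-1 KO cells that region had 14.0 and rank 616. Its summit was 582 bp past the gene end in WT and 480 bp past it in SHP-1 KO cells. A region that began in intron 2 of FGFR3, from 1795079 to 1800401, had 12.6 in WT cells, and the region over it had 8.15 in SHP-1 KO cells, so both were lower in the knockout. At summits in intron 7 the values went the other way, with 3.49 in WT (1800958 to 1803013) and 8.23 in the knockout (1801742 to 1803158).

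At FGFR4 the phospho-Ser2 values were higher in the knockout. Its strongest phospho-Ser2 region had a fold enrichment of 18.7 in WT (177097141 to 177101486, rank 255) and 23.8 in the knockout (177097131 to 177101317, rank 75), with summits 1454 and 1452 bp past the gene end. In intron 1 the phospho-Ser2 values were 6.14 in WT and 13.4 in the knockout. In the long region that followed they were 7.00, with the summit in intron 2, and 7.42, with the summit in intron 1. At summits in intron 11 they were 5.95 and 9.24. Each of these 4 regions was higher in the SHP-1 KO list, and the phospho-Ser2 values of 6.14 and 13.4 differed most. Over the same stretch RPB1 had 69.3 and 66.2 at the start, 17.3 and 12.9 at summits in intron 11, and 25.6 and 24.8 past the end. Of the 10 phospho-Ser2 regions assigned to FGFR4, 4 in each list lay from 9194 to 19092 bp upstream, in introns of another gene by the authors' annotation, and were not read as FGFR4 transcription.

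EPHA2 had 25 phospho-Ser2 regions in WT and 22 in the knockout, which covered 29.2 and 28.9 kb in all. Of these, 22 and 19 had their summit inside the gene, spread along its length, and the others lay upstream of it or past its end. The strongest had 9.65 in WT, in intron 16, and 10.2 in SHP-1 KO cells, 1191 bp past the end. ERBB3 had 8.39 in WT and 9.81 in the knockout, with summits in coding exons 13 and 16, over 16.9 and 15.4 kb in all. For both genes the phospho-Ser2 values of the genotypes were close.

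EGFR had phospho-Ser2 RPB1 in its 3′ UTR, with 6.53 in WT (55208123 to 55211470) and 5.13 in the knockout (55210481 to 55210921). The WT region was 3348 bp wide, and the SHP-1 KO list held 4 narrower regions within it. ERBB2 had 9 weak phospho-Ser2 regions in WT cells, the strongest with 4.57, and 3 in SHP-1 KO cells, the strongest with 3.28. Toward its end, the list gave stronger regions to MIR4728, a microRNA gene inside ERBB2. One such region ran from 39724456 to 39730135 with 12.2 in WT cells, and from 39724779 to 39730582 with 5.22 in SHP-1 KO cells. It covers the 3′ end of ERBB2 and reaches into the opposite-strand gene MIEN1. EGFR-AS1, MIR4728 and MIEN1 were named because of these values.

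MET had 6 phospho-Ser2 regions in WT cells, in exon 2 and in introns 2, 11, 16 and 19, with fold enrichments from 2.17 to 4.05, and none in SHP-1 KO cells. Only 1 of the 6 had a −log10 q-value of at least 5, namely the region with 4.05 from 116786578 to 116786826. DDR1 had 1 phospho-Ser2 region in each list, just past the gene end, with 6.10 in WT and 3.17 in the knockout and widths of 1781 and 391 bp. MST1R had 5.33 in WT and 4.29 in the knockout, but these regions lay 3922 to 4628 bp upstream of it, in the 3′ UTR of another gene by the authors' annotation. FGFR2 had no phospho-Ser2 region in either list.

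**Figure D3:**
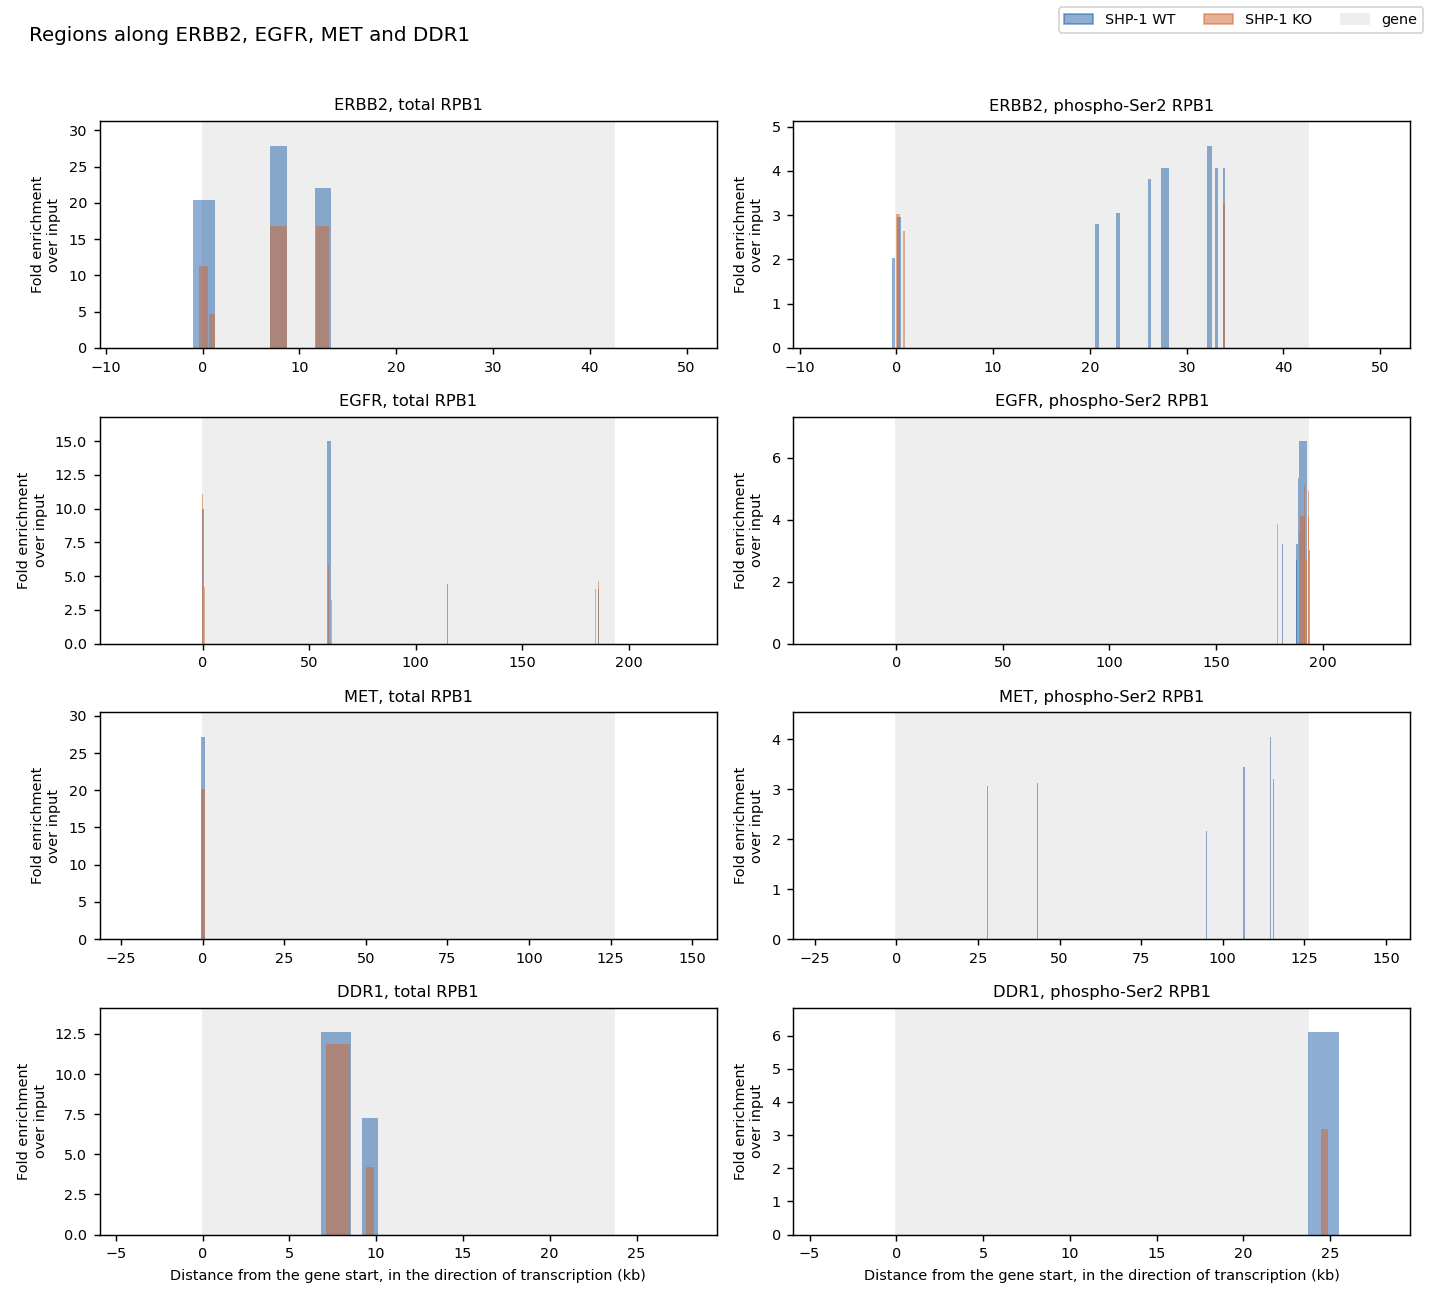
Regions assigned to ERBB2, EGFR, MET and DDR1, drawn by distance from the gene start (kb, in the direction of transcription) and by fold enrichment over input, with RPB1 on the left and phospho-Ser2 RPB1 on the right, WT in blue, SHP-1 KO in orange and the gene in gray. The 3 RPB1 regions of ERBB2 are lower in SHP-1 KO cells, EGFR has RPB1 at its start and in intron 1, and the 6 phospho-Ser2 regions of MET are in the WT list alone.

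The comparison of SHP-1 KO with WT asks whether polymerase occupancy at these genes differed without the phosphatase. For RPB1, 2 of 10 genes, MST1R and FGFR2, had a region in WT and none in SHP-1 KO cells, where 8.73% of 14746 genes with a region in either list did. None of the 10 had an RPB1 region in SHP-1 KO cells alone, against 3.95% of those genes. For phospho-Ser2 RPB1, 1 of 9 genes, MET, had regions in WT cells alone, against 14.1% of 13303 genes, and 0 of 9 in SHP-1 KO cells alone, against 4.23%. A region that is not listed was below the threshold of the peak caller, which does not show that RPB1 was absent.

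Among the 8 genes with an RPB1 region in both lists, the KO to WT ratio of the strongest fold enrichment was below 1 for 8. It was also below 1 for 82.1% of the 12877 genes with a region in both lists. The median ratio was 0.842 over the 8 genes and 0.742 over all of these genes. The lower values in the knockout were thus shared by most genes, and 1 of 8 receptor kinase genes, ERBB2, was at least 1.5-fold lower, with a ratio of 0.603, against 36.1% of all genes. None of the 8 was at least 1.5-fold higher, against 2.68%.

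The genes fell into a lower and a higher set of RPB1 ratios. ERBB2 with 0.603, FGFR3 with 0.685, EGFR with 0.738 and MET with 0.743 lay at or below about the median of all genes. DDR1 with 0.941, ERBB3 with 0.952, EPHA2 with 0.955 and FGFR4 with 0.956 lay above it. Divided by the median over all genes, the ratio of ERBB2 was 0.813, which is not past 1.5-fold. Promoter regions alone gave EGFR a ratio of 1.11, and the strongest summit inside each gene, whatever its assigned symbol, gave EGFR 0.669 and ERBB2 0.722. The ratio of 0.738 for EGFR sets the gene start of the knockout (11.1) against intron 1 of WT (15.0), and the 0.722 for ERBB2 rests on a region assigned to MIEN1.

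For phospho-Ser2 RPB1 the ratio was below 1 for 5 of 8 genes, against 59.7% of 10870 genes, with a median of 0.795 over the 8 and 0.936 over all genes. DDR1 with 0.520 and FGFR3 with 0.582 were at least 1.5-fold lower, 2 of 8 genes, against 11.7% of all genes. ERBB2 with 0.717 and EGFR with 0.786 were lower by less, as were the regions upstream of MST1R with 0.803, which lie in another gene. EPHA2 with 1.06, ERBB3 with 1.17 and FGFR4 with 1.28 were higher. None was at least 1.5-fold higher, against 5.71%. Inside the genes, whatever the assigned symbol, the phospho-Ser2 ratio was 1.92 for FGFR4, 0.653 for FGFR3 and 0.439 for ERBB2. Each of these ratios compares unlike places. The FGFR4 value sets intron 1 of the knockout (13.4) against intron 2 of WT (7.00). For ERBB2, both regions were assigned to MIR4728. Their summits lay 35845 bp past the gene start in the knockout (5.34) and 41473 bp past it in WT (12.2). The FGFR3 value sets intron 7 of the knockout against intron 2 of WT, and with the mean of all its regions the phospho-Ser2 ratio of FGFR3 was 0.942. By the strongest region, FGFR3, ERBB2, EGFR and DDR1 were lower in the knockout with both antibodies, DDR1 only slightly for RPB1 (0.941). By the same measure FGFR4, ERBB3 and EPHA2 were slightly lower with the RPB1 antibody and higher with the phospho-Ser2 antibody, although inside the gene EPHA2 had a phospho-Ser2 ratio of 0.884.

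**Figure D4:**
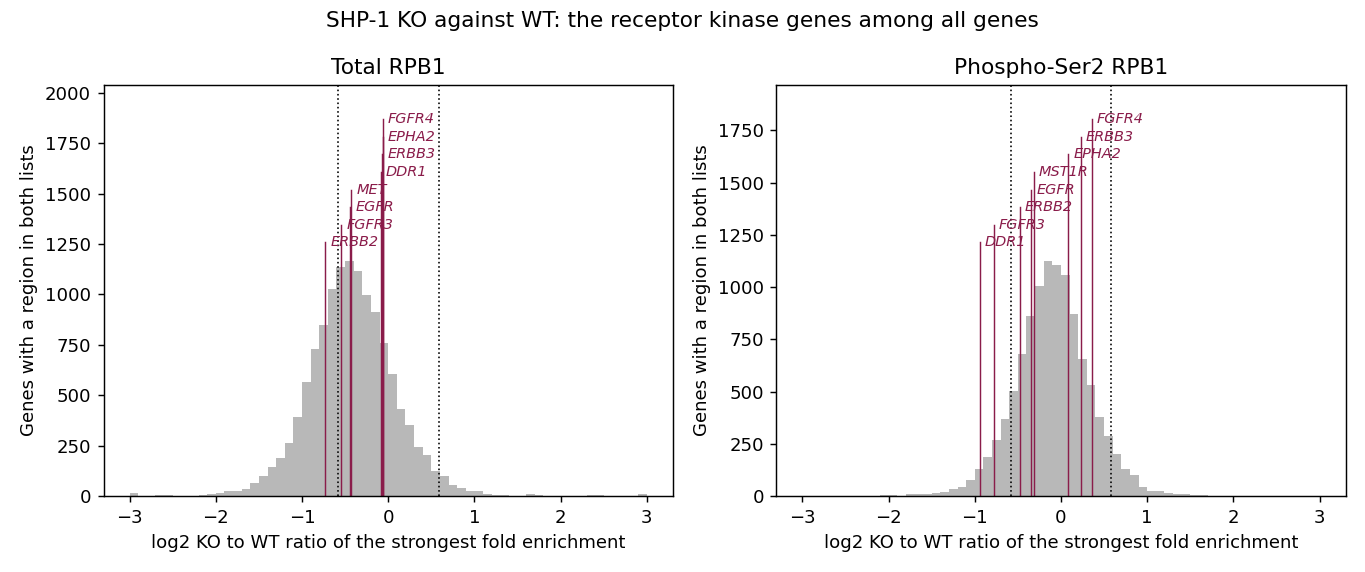
Number of genes by log2 KO to WT ratio of the strongest fold enrichment, for 12877 genes with RPB1 regions and 10870 genes with phospho-Ser2 regions in both lists, with lines for the receptor kinase genes, dotted lines at 1.5-fold and more extreme ratios in the end bins. For RPB1, ERBB2 alone lies beyond the lower dotted line, and for phospho-Ser2 RPB1, DDR1 and FGFR3 do.

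Regions were often found at the same place in both genotypes. Of the WT RPB1 regions of these genes, 51 of 68 (75.0%, 95% Wilson confidence interval 63.6 to 83.8) were overlapped by at least 1 bp by an SHP-1 KO region, against 61.9% of all WT RPB1 regions. In the other direction it was 57 of 72 (79.2%, interval 68.4 to 86.9), against 74.9%. For phospho-Ser2 RPB1, 53 of 81 WT regions were overlapped (65.4%, interval 54.6 to 74.9), against 52.2%. Of the SHP-1 KO phospho-Ser2 regions 63 of 70 were (90.0%, interval 80.8 to 95.1), against 69.9%. The intervals cover counting error only, and regions of 1 gene are not independent. The unmatched WT regions included the 6 phospho-Ser2 regions of MET and 7 of the 9 of ERBB2.

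FGFR3 also had RPB1 upstream of its start, in regions classed as distal intergenic. The strongest ran from 1775474 to 1777279, with its summit 16773 bp upstream, and had 22.2 in WT and 7.75 in the knockout. A second, 8106 bp upstream, had 19.9 in WT (1784523 to 1785745) and 17.4 in the knockout (1784687 to 1785608). Phospho-Ser2 RPB1 upstream of FGFR3 reached 5.08 in WT and 3.86 in the knockout, and lay more than 20 kb from the start.

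Over the 8 receptor kinase genes with an RPB1 region in both lists, the median strongest fold enrichment was 32.4 in WT and 27.6 in the knockout. For phospho-Ser2 RPB1 it was 7.46 and 7.47 over the 8 genes in both lists. Over all 10 genes with an RPB1 region in WT it was 27.6, and over the 9 with a phospho-Ser2 region 6.53. All genes with a region had medians of 23.0 and 17.3 for RPB1 and of 5.58 and 5.46 for phospho-Ser2 RPB1. FGFR4 had the highest mean percentile over the 4 lists, 99.6, followed by FGFR3 with 99.5 and EPHA2 with 98.7. Of 9237 genes with a region in all 4 lists, the closest to FGFR4 in these percentiles were EEF1A1, a translation elongation factor gene, at a distance of 0.209 percentile points, FN1, the fibronectin gene, at 0.264, and LINC00910 at 0.280. In EEF1A1 the RPB1 fold enrichment was 68.9 in WT and 69.6 in the knockout, and that of phospho-Ser2 RPB1 was 24.4 and 20.5. The likeness is over 4 libraries and is a description.

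Of the other 48 receptor tyrosine kinase genes, 21 had an RPB1 region in WT and 19 in the knockout, and 26 had none in either list. Of the 18 in both lists, 6 were at least 1.5-fold lower and 1 was higher in the knockout, with a median ratio of 0.742. Over all genes in both lists, 36.1% were at least 1.5-fold lower and 2.68% higher, also with a median ratio of 0.742. FGFR1, the remaining classical fibroblast growth factor receptor, had 77.3 in WT and 53.0 in the knockout, second to FGFR3. The insulin receptor gene INSR had 40.4 and 39.7, and IGF1R, the receptor of insulin-like growth factor, had 24.5 and 22.8. EPHA10, EPHB2 and EPHB6, further ephrin receptors, had an RPB1 region in WT alone, with 8.51, 7.51 and 9.51, and EPHB1 had one in SHP-1 KO cells alone, with 7.92.

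Of 27 ligand genes, 12 had an RPB1 region in WT and 13 in the knockout. Of the 10 in both lists 5 were at least 1.5-fold lower and 0 higher, against 36.1% and 2.68% of all genes. Their median ratio was 0.689, against 0.742 over all genes. HBEGF, an EGFR ligand gene, had 82.9 in WT and 65.4 in the knockout. The ephrin ligand genes EFNA1 and EFNA3 had 69.7 and 44.8 in WT and 33.7 and 25.5 in SHP-1 KO cells. AREG, an EGFR ligand gene, with 4.89, and FGF21, a liver hormone gene, with 6.66, had a region in WT alone. NRG1 with 5.22, NRG4 with 4.41 and FGF2 with 4.66 had one in SHP-1 KO cells alone, and each of these 5 values but that of FGF21 was below the medians of the lists over all regions, 5.51 in WT and 5.62 in the knockout.

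Of 23 genes for coreceptors, adaptors and negative regulators of these receptors, 20 had an RPB1 region in both lists. Of these 20, 5 were at least 1.5-fold lower and 1 was higher, against 36.1% and 2.68% of all genes. Their median ratio was 0.783, against 0.742 over all genes. ERRFI1, an inhibitor of EGFR family kinases, had 66.3 in WT and 50.8 in the knockout. SPRY2, a feedback inhibitor, had 60.3 and 44.6, and SOS1, the exchange factor that activates RAS, had 58.9 and 21.1. PTPN6, the gene that was edited, had 24.0 and 17.2, which measures polymerase at the gene and not the SHP-1 protein.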

How the data were processed

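ChIP-seq for RPB1 and for phospho-Ser2 RPB1 was done in HepG2 WT and SHP-1 KO cells. The authors used Trimmomatic on the single-end reads, BWA with the hg38 genome, and MACS2 for narrow peaks of each library over the input DNA of its genotype. Versions are not given in the sources used here. The authors deposited the fold enrichment over input, a ratio, and p- and q-values as −log10 for each region, with its class and nearest gene. A deposited table of the authors' csaw comparison (numbers of windows up and down, p-values and adjusted p-values) was not used, and the 2 input libraries were not analysed here.

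Regions were taken by gene symbol. Ratios compare the strongest region of a gene in each list, called past 1.5-fold, over all genes with a region in both lists. Gene positions and exons came from GENCODE release 44, with which 50 of 60 transcripts of these genes in the lists shared start and end. The overlap and ratio functions were tested on simulated data. Named were the 10 genes, the 3 genes of each list with the strongest WT RPB1 region, those with RPB1 in 1 genotype alone, INSR, IGF1R, PTPN6 and the 3 genes closest to the top-ranked member. The genes and lists were chosen with earlier results of these data known. Python 3.11.15, pandas 2.3.3, NumPy 2.4.6, SciPy 1.17.1 and Matplotlib 3.10.9 were used.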

Additional observations from a re-analysis of the deposited data

How the results depend on the processing

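With 1 library per antibody and genotype, no replicate could be left out. No paired analysis was possible because the labels give no replicate numbers and each group has 1 library. The depth is unknown, so the listing of weak regions may depend on it. When regions needed a −log10 q-value of 5, the genes had 49 WT phospho-Ser2 regions, 2 genes (MET and DDR1) had such regions in WT cells alone, 77.6% of WT phospho-Ser2 regions were overlapped in SHP-1 KO cells, and 28.1% of the WT RPB1 regions inside the genes lay past the middle, against 43.5% without that limit.

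The counts that follow have no share over all genes at the same setting. Of 8 genes, the count with RPB1 at least 1.5-fold lower was 0 after division by the median of all genes and 0 at a fold of 2. It was 0 with the strongest summit inside the gene and 2 (EGFR and ERBB2) with the mean of all regions. For phospho-Ser2 RPB1 the count of lower genes was 1 of 5 (FGFR3) with promoter regions, 1 of 8 (DDR1) with the mean of all regions and 0 of 8 at a fold of 2. With the strongest summit inside the gene, 1 of 6 genes, FGFR4, was higher for phospho-Ser2 RPB1, with intron 1 of the knockout set against intron 2 of WT. With a reciprocal overlap of 50%, 41.2% of RPB1 and 25.9% of phospho-Ser2 WT regions were overlapped, and with 50% of the WT region 54.4% and 45.7% were. The cause of these changes was not tested. The summit inside the gene and the GENCODE intervals were chosen after seeing the data. Another 58 values for the counts, medians and shares stayed within 1.5 times the main value or within its interval.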

Other observations

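Some regions inside these genes carried the symbol of a neighbor or of a gene within them. Within the EGFR gene interval, 8 RPB1 and 9 phospho-Ser2 regions were assigned to EGFR-AS1 in WT cells, and 4 and 8 in SHP-1 KO cells. At the 3′ end of ERBB3, a region assigned to PA2G4, the gene that follows it, chosen after its values were seen, had a phospho-Ser2 fold enrichment of 26.2 in WT (56101527 to 56104849) and 22.7 in SHP-1 KO cells (56101007 to 56104947), above the 8.39 and 9.81 of the regions assigned to ERBB3. Each of these regions spans the end of ERBB3 and the start of PA2G4.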
